A study of Homo sapiens with 3 samples.

Results

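The 7 long non-coding RNAs MALAT1, NEAT1, MIAT, PVT1, TUG1, OIP5-AS1 and NORAD were examined among the RNAs recovered with CSTF2tau, a subunit of the cleavage stimulation factor that contacts RNA. With the IDs in the order above, they are ENSG00000251562, ENSG00000245532, ENSG00000225783, ENSG00000249859, ENSG00000253352, ENSG00000247556 and ENSG00000260032. They are 7 of the 13356 Ensembl gene IDs listed in the study. They were chosen by ID for what they are, with earlier results of these data known. The cells were BE(2)-C, an established human neuroblastoma line of wild-type genotype, and the labels give 1 group of 3 biological replicates. In sCLIP, proteins are fixed to RNA by ultraviolet light before lysis, the RNA is cut into short pieces, and those pulled down by an antibody against CSTF2tau are sequenced. Input or control antibody libraries were not analysed here, so binding by CSTF2tau and abundance of the RNA cannot be told apart in any value below. The files hold gene IDs and no gene names, and the 7 names follow from the chosen IDs. RefSeq has each of the 7 symbols on the chromosome of the listed peaks.

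The cleavage stimulation factor recognises GU- or U-rich sequence downstream of cleavage sites, and CSTF2tau is the paralog of its CSTF2 subunit. Long non-coding RNAs are cut by the same machinery as messenger RNAs, with known exceptions: MALAT1 and the long isoform of NEAT1 get their stable ends from a cut upstream of a tRNA-like structure. NEAT1 also has a short isoform that ends at a polyadenylation site in its first part, and both isoforms share the start. The choice between them sets whether paraspeckles, the nuclear bodies built on the long isoform, can form.

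The 3 peak lists held 736059, 108434 and 387784 reads in replicates 1, 2 and 3, inside 105203, 18346 and 78761 peaks. These totals leave out reads outside listed peaks, and the sequencing depth is unknown. The replicates did not carry the same versions of their gene IDs. Versions differed for 2197 of 4723 IDs shared by replicates 1 and 2 (46.5%) and for 3836 of 8808 shared by replicates 1 and 3 (43.6%), but for 0 of 4640 shared by replicates 2 and 3. Among the long non-coding RNAs, NEAT1 had version 4 in replicate 1 and version 3 in the others, PVT1 had version 3 in replicate 1 and version 2 in the others, and TUG1, OIP5-AS1 and NORAD had 1 version throughout. The part of the version in any difference between replicates was not tested.

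The 7 RNAs together took 7123, 438 and 791 reads of replicates 1, 2 and 3, or 0.968%, 0.404% and 0.204%. NEAT1, PVT1, TUG1, OIP5-AS1 and NORAD were listed in all 3 replicates. MALAT1 and MIAT were listed in replicate 1 alone. For comparison, 4414 of all 13356 gene IDs (33.0%) were in all 3 lists, and 2035 were in replicate 1 alone. Shares spanned more than 2 orders of magnitude, with MALAT1 and NEAT1 highest and MIAT and NORAD lowest.

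**Figure D1:**
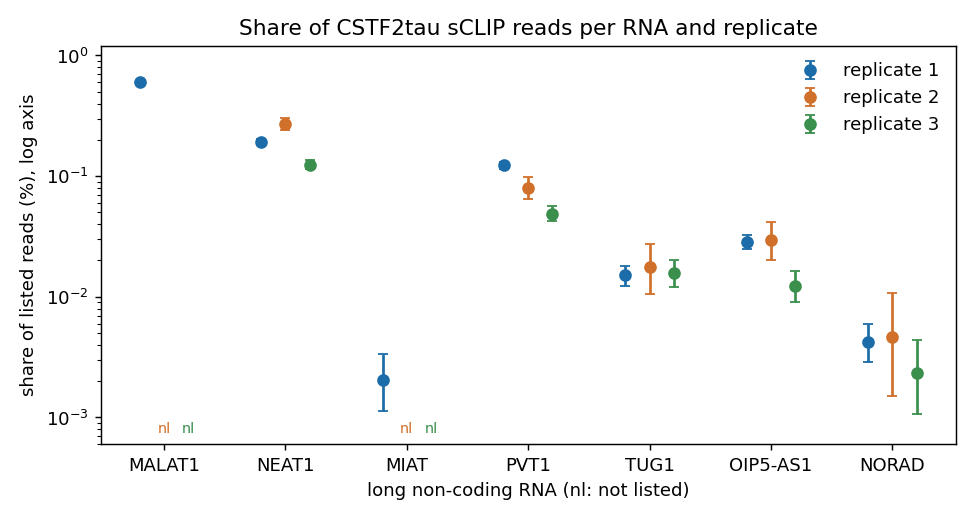
Share of all listed reads (percent, log axis) for each long non-coding RNA, with 1 point per replicate and the exact 95% interval as the bar; nl marks a replicate without a listed peak. NEAT1 lies between 0.125% and 0.272%, TUG1 stays between 0.0151% and 0.0175%, and MALAT1 and MIAT have a point in replicate 1 only.

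MALAT1 is an abundant RNA of nuclear speckles, bodies rich in splicing factors. It held 4430 reads in 204 peaks in replicate 1, at hg19 chr11:65266554-65273424 on the plus strand. That was 0.602% of the reads (95% interval 0.584 to 0.620%), rank 5 among 11152 gene IDs. Replicates 2 and 3 had no MALAT1 peak, and no peak of any other gene ID inside the span. At the share of replicate 1, their totals would correspond to 653 and 2334 reads. A gap of this size between lists is wider than the counting error, but the ID itself was missing, so no level in replicates 2 and 3 follows from it.

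Reads on MALAT1 were dense. It had 0.0876% of the listed reads per kb of listed span, the highest of 4756 gene IDs with at least 5 peaks in replicate 1, whose median was 0.000212% per kb. This density sums all touching peaks, which may share reads. Density and rank were not computed with the highest peak of each unbroken run alone. The first 3 kb of the listed span were richest, with 987, 1351 and 715 reads per kb window, against 182 to 522 in the following 4 windows. The 3 strongest single peaks lay in the first 2 kb. Touching peaks were kept apart in this ranking, so unbroken runs of several peaks were not ranked. A stretch of 4 nt at chr11:65267020-65267023 had 202 reads, chr11:65268317-65268339 had 155, and chr11:65267241-65267263 had 140. The strongest peak held 4.56% of the MALAT1 reads. The median was 20% for the strongest peak of gene IDs with at least 5 peaks. These percentages are not directly comparable, because the MALAT1 reads were split over 204 peaks with a median width of 5 nt. All peaks of replicate 1 had a median width of 79 nt. Whether a single place dominated was not tested.

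**Figure D2:**
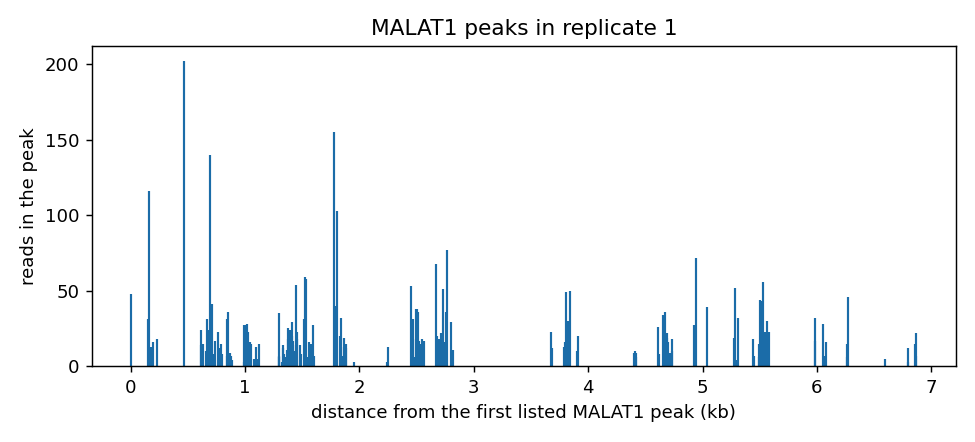
Each line is 1 of the 204 MALAT1 peaks of replicate 1, at its distance from the first listed peak (kb), with its reads as the height. Peaks are spread over the 6.87 kb span and the 3 strongest single peaks, with 202, 155 and 140 reads, lie in the first 2 kb.

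RefSeq places the antisense RNA TALAM1 across MALAT1. No peak was listed on the minus strand inside the MALAT1 span in any replicate, and the same held for the spans of the other 6 RNAs. Of 7230 gene IDs with at least 5 peaks, 485 (6.71%) had an opposite-strand peak within their span, and 0 of 7 is close to that background.

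NEAT1, the scaffold of paraspeckles, had the highest share among the 5 RNAs listed in every replicate. It had 1418, 295 and 483 reads in 185, 27 and 30 peaks in replicates 1, 2 and 3, within hg19 chr11:65190307-65212146 on the plus strand. Its share was 0.193% (95% interval 0.183 to 0.203%), 0.272% (0.242 to 0.305%) and 0.125% (0.114 to 0.136%), a mean of 0.196% ± 0.0738 (SD, n = 3). Replicate 2 was highest and replicate 3 lowest, by more than the counting error. The ranks were 38 of 11152, 35 of 5173 and 60 of 10788 gene IDs. Highest and lowest share differed 2.18-fold, against a median of 3.21-fold over the 4414 gene IDs in all 3 lists. Those gene IDs were not matched for reads, and counting error widens the fold where reads are few. NEAT1 held 0.00993%, 0.0125% and 0.00578% of the listed reads per kb of span, rank 14 of 4756, 65 of 828 and 24 of 4444 gene IDs with at least 5 peaks. RefSeq places the microRNA gene MIR612 inside NEAT1, and replicate 2 had 1 peak of 5 reads in the span under another gene ID, at chr11:65211983-65212067.

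The reads on NEAT1 were concentrated at its start in each replicate. The first 4 kb of the listed span held 65.8%, 69.5% and 75.8% of the NEAT1 reads in replicates 1, 2 and 3. The next stretch, from 4 to 10 kb, held 12.8%, 21.0% and 8.28%. From 10 to 15 kb there were 4.23%, 1.02% and 3.52%, and from 15 to 22 kb 17.1%, 8.47% and 12.4%. In all 3 lists the stretch from 15 to 22 kb thus held a larger percentage than the stretch from 10 to 15 kb. The peaks in it differed in part between replicates. Replicate 2 had 3 peaks there, with 19 of their 25 reads from 15 to 16 kb, where replicate 1 had no peak. Replicate 1 also had no peak in the last 2 kb, where replicates 2 and 3 had 3 and 20 reads. The limits of these stretches were chosen after the profile had been seen. Both isoforms share the start of NEAT1, so the reads there cannot be assigned to either.

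**Figure D3:**
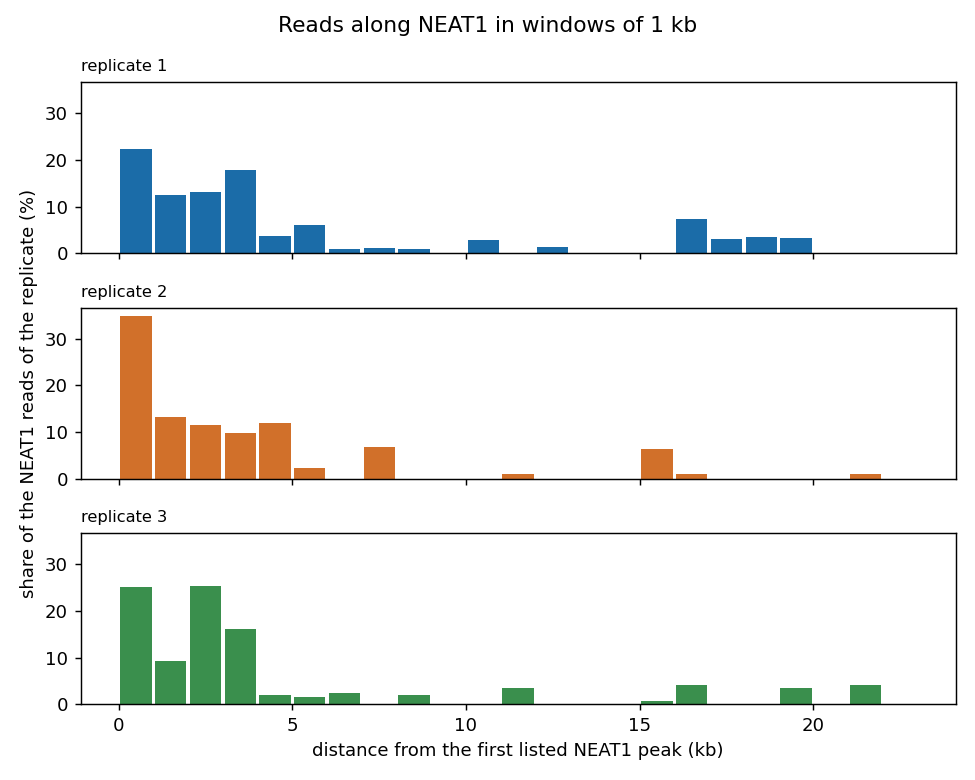
Share of the NEAT1 reads of each replicate (percent) in windows of 1 kb, by distance from the first listed peak. In each replicate the first 4 windows together hold between 65.8% and 75.8% of the reads, and the windows from 10 to 15 kb hold at most 4.23%.

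NEAT1 held 8 of the 9 loci of these RNAs that were present in all 3 replicates. Peaks were merged into loci where they overlapped on the same strand. Of its 122 loci, these 8 make 6.56%, against 0.882% over all gene IDs, and 17 more were in exactly 2 replicates. The value over all gene IDs takes in IDs not listed in all 3 replicates and was not matched for reads. The 8 loci held 33.2%, 42.7% and 59.8% of the NEAT1 reads of replicates 1, 2 and 3. All 8 began within the first 4192 nt of the span. The first by mean share was chr11:65192419-65192602, with 123, 3 and 93 reads. Next was chr11:65190541-65190691, with 43, 27 and 46 reads. Another, chr11:65192050-65192171, had 83, 21 and 39 reads. The order of these loci thus differed between replicates, and replicate 2 had few reads at the first.

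The other NEAT1 loci found in every replicate were weaker on average. The locus at chr11:65190378-65190515 had 40, 26 and 27 reads, and chr11:65193742-65193871 had 118, 5 and 40. The locus at chr11:65192867-65192952 had 25, 17 and 21 reads. With lists of such different totals, like read numbers are unlike shares, here 0.00340%, 0.0157% and 0.00542%. The remaining 2 were chr11:65194499-65194599, with 33, 14 and 10 reads, and chr11:65193504-65193593, with 6, 13 and 13.

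Overlap of 1 nt or more with another list was found for 105 of 185 NEAT1 clusters in replicate 1 (56.8%). The same held for 20 of 27 clusters of replicate 2 (74.1%) and for 20 of 30 of replicate 3 (66.7%). Over all gene IDs the percentages were 15.3%, 35.4% and 16.9%. Among clusters of 3 to 4 reads in replicate 1, 39 of 74 NEAT1 clusters (52.7%) were shared, against 9.10% of 42322 over all gene IDs. Clusters of 20 reads or more were shared at 6 of 12 in NEAT1 and at 40.7% over all gene IDs. In replicate 3, clusters of 20 reads or more were shared at 8 of 10 in NEAT1, against 81.7% over all gene IDs, and those of 3 to 4 reads at 1 of 5, against 10.4%. Neighbouring clusters within 1 RNA are not independent, and dense peaks meet peaks of another list more easily, so no test was made.

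The peaks of MALAT1 and NEAT1 in replicate 1 were unusually narrow. Their median width was 5 nt and 7 nt, against 79 nt over all peaks of that replicate. Under 10 nt were 79.4% of MALAT1 peaks and 74.1% of NEAT1 peaks, against 2.49% of all. Among 1204 gene IDs with at least 20 peaks in replicate 1, MALAT1 had the lowest median width, and 6 IDs lay below NEAT1. In replicates 2 and 3 the NEAT1 peaks had a median of 62 nt and 69 nt, close to the 72 nt and 69 nt of all peaks.

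Many of the narrow peaks touched the next without a gap. The 204 MALAT1 peaks formed 61 unbroken runs and the 185 NEAT1 peaks of replicate 1 formed 102. Touching neighbours carried different read numbers, with a median 1.80-fold difference over all touching pairs of replicate 1. Should reads have been counted in several touching peaks, the sums would be too high. With only the highest peak of each run, for all gene IDs alike, MALAT1 had 0.308% of the reads in place of 0.602%, while the mean share of NEAT1 was 0.157% in place of 0.196%.

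**Figure D4:**
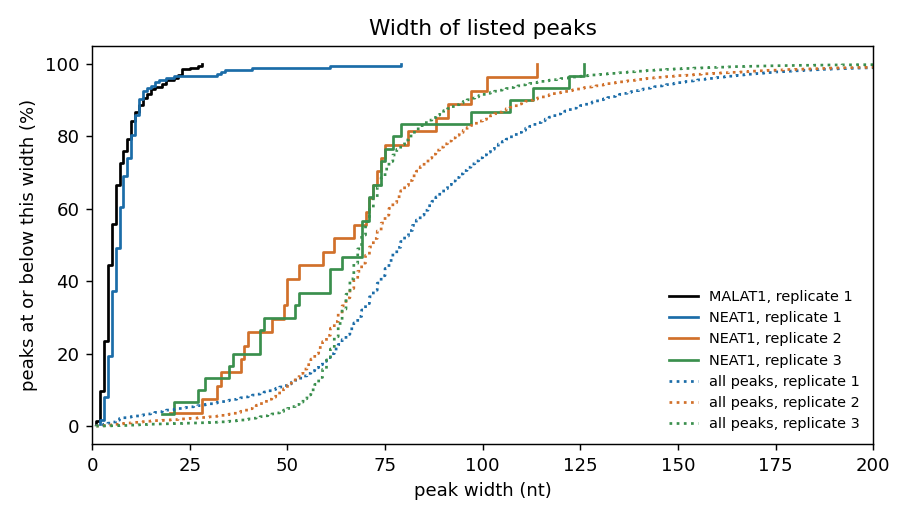
Cumulative percentage of peaks by width (nt) for MALAT1 in replicate 1, for NEAT1 in each replicate (solid lines) and for all peaks of each replicate (dotted lines). The MALAT1 and NEAT1 curves of replicate 1 rise far to the left, with medians of 5 and 7 nt, while NEAT1 in replicates 2 and 3 has medians of 62 and 69 nt.

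MIAT, a nuclear RNA known from neurons that binds splicing factors, was close to the lower limit of listing. Replicate 1 had 15 reads in 4 peaks at hg19 chr22:27062850-27071636 (+), 0.00204% of the reads (95% interval 0.00114 to 0.00336%). The strongest, chr22:27071250-27071329, had 5 reads, followed by chr22:27062850-27062901 with 4 and chr22:27070486-27070491 with 3. Of the 4 peaks, 3 were also listed, with the same coordinates, under another gene ID, and without them the share was 0.000573%. At the share of replicate 1, replicates 2 and 3 would have 2.21 and 7.90 reads, and no listed peak has under 3, so its absence there was not informative at these totals.

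PVT1 is a long host RNA next to MYC whose exons and introns span several microRNA genes. Its 909, 87 and 190 reads were spread over 111, 18 and 33 peaks in replicates 1, 2 and 3, within hg19 chr8:128807566-129113589 (+). The share was 0.123% (95% interval 0.116 to 0.132%), 0.0802% (0.0643 to 0.0990%) and 0.0490% (0.0423 to 0.0565%), a mean of 0.0842% ± 0.0374 (SD, n = 3). The intervals did not overlap, and replicate 1 was highest.

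Per kb of the span listed in each replicate, PVT1 was above the median gene ID in replicate 1 and below it in the others. It had 0.000442%, 0.000288% and 0.000166% of the listed reads per kb in replicates 1, 2 and 3, against medians of 0.000212%, 0.000877% and 0.000194% for gene IDs with at least 5 peaks. Of its 149 loci, 0 were present in all 3 replicates and 8.05% in at least 2. Over all gene IDs 0.882% of loci were in all 3 and 8.54% in at least 2, so PVT1 was near this background. That background takes in IDs not listed in all 3 replicates and was not matched for reads. The first by mean share was chr8:129042200-129042359, with 24 reads in replicate 1, 9 in replicate 2 and none in replicate 3. The next, chr8:129040654-129040776, had 9 reads in replicate 2 alone, and chr8:128834896-128835028 had 14 and 23 reads in replicates 1 and 3. Another gene ID had 1 peak of 3 reads inside the span in replicate 3.

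TUG1, a long non-coding RNA found in nucleus and cytoplasm for which RefSeq now also records coding transcripts, had the steadiest share. It had 111, 19 and 61 reads in 7, 3 and 8 peaks at hg19 chr22:31367325-31375440 (+). These were 0.0151% (95% interval 0.0124 to 0.0182%), 0.0175% (0.0105 to 0.0274%) and 0.0157% (0.0120 to 0.0202%) of the listed reads, and the mean was 0.0161% ± 0.00126 (SD, n = 3). The 3 intervals overlapped, and highest and lowest differed 1.16-fold.

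Of the 14 loci of TUG1, 0 were in all 3 replicates and 4 in exactly 2, or 28.6% in at least 2, against 8.54% over all gene IDs. As for PVT1, the value over all gene IDs was matched neither for reads nor for listing in all 3 replicates. The 12 reads of chr22:31374842-31374902 were in replicate 2 alone. The locus at chr22:31370231-31370347 had 44 reads in replicate 1 and 6 in replicate 3, and chr22:31373883-31374011 had 12 and 21. Replicate 2 shared no TUG1 cluster with the others.

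OIP5-AS1, named cyrano and known for its site for miR-7, had 209, 32 and 48 reads in 22, 4 and 12 peaks at hg19 chr15:41577508-41600471 (+). Its share was 0.0284% (95% interval 0.0247 to 0.0325%), 0.0295% (0.0202 to 0.0417%) and 0.0124% (0.00913 to 0.0164%), a mean of 0.0234% ± 0.00959 (SD, n = 3). Replicates 1 and 2 overlapped and replicate 3 lay below both. Of 32 loci, 1 was present in all 3 replicates, at chr15:41581131-41581331, with 14, 9 and 6 reads. A neighbouring locus, chr15:41581505-41581773, had 34 reads in replicate 1 and 7 in replicate 2, and chr15:41598731-41598817 had 12 in replicate 2 alone. OIP5, the coding gene that RefSeq places across part of OIP5-AS1, added no peak on the minus strand within the span.

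NORAD, an abundant cytoplasmic RNA with many sites for Pumilio proteins, had few reads. There were 31, 5 and 9 reads in 3, 1 and 2 peaks at hg19 chr20:34633470-34635487 on the minus strand. The share was 0.00421% (95% interval 0.00286 to 0.00598%), 0.00461% (0.00150 to 0.0108%) and 0.00232% (0.00106 to 0.00441%), a mean of 0.00371% ± 0.00122 (SD, n = 3). The intervals overlapped, so no difference between replicates was detectable at these counts. The strongest locus, chr20:34634485-34634587, had 17 reads in replicate 1 and 5 in replicate 2. The next were chr20:34634988-34635100, with 10 reads in replicate 1, and chr20:34633470-34633601, with 5 in replicate 3. NORAD is the only minus-strand RNA of the 7. The minus strand took 63.2% of all nuclear reads in replicate 3, with 48.8% and 50.6% in replicates 1 and 2. NEAT1, PVT1 and OIP5-AS1 on the plus strand and NORAD on the minus strand all had their lowest share in replicate 3, while TUG1 did not. For NORAD this rests on 9 reads. How many of all gene IDs were lowest in replicate 3 was not counted, and the part of the strand was not tested.

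**Figure D5:**
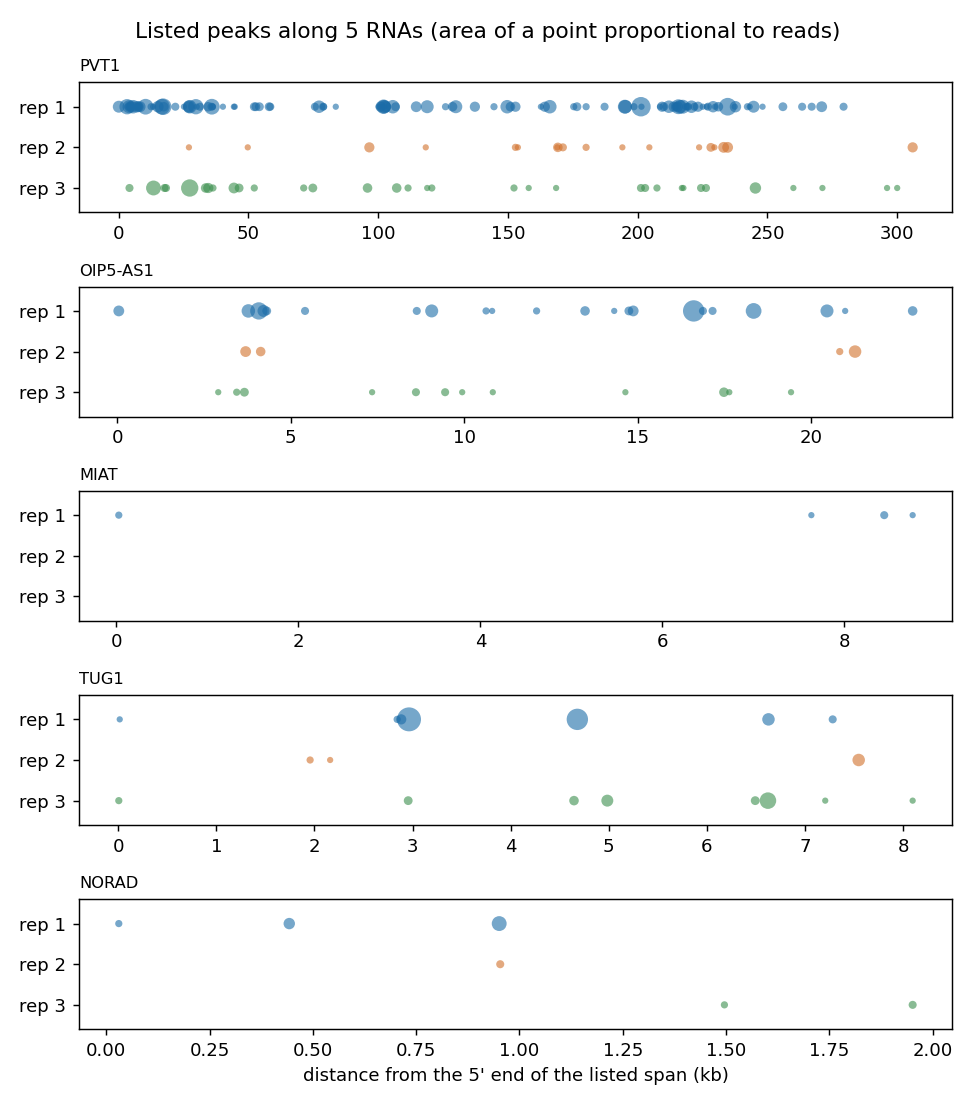
Listed peaks of PVT1, OIP5-AS1, MIAT, TUG1 and NORAD by distance from the 5′ end of the listed span (kb), with 1 row per replicate and the area of a point proportional to its reads. PVT1 peaks are scattered over 306 kb, and OIP5-AS1 has 1 of 32 loci in all 3 replicates, 3623 nt from the 5′ end.

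The cleavage stimulation factor acts where transcripts are cut, and the last comparison asked at which end of each RNA the reads lay. Reads in the last 10% of the listed span, called distal here, were set against those in the first 10%, called proximal, by an exact two-sided binomial test, adjusted over all 6382 gene IDs tested. Of these, 18.1% were called distal and 14.1% proximal. A call needed an adjusted p below 0.05 and no replicate pointing the other way or evenly, among those with reads at an end. Of the 5 RNAs with enough reads, MALAT1 and NEAT1 were called proximal and OIP5-AS1 distal. PVT1 and TUG1 were not called, and MIAT and NORAD had too few reads or loci.

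NEAT1 had 23 distal against 873 proximal reads, and the log2 ratio was -5.22 (exact binomial test, adjusted p = 4.4e-222). The replicates had 0 against 542, 3 against 142 and 20 against 189 reads. The call was lost when only the outermost locus at each end was used (log2 ratio -4.25). MALAT1 had 131 distal against 569 proximal reads, with log2 ratio -2.11 (exact binomial test, adjusted p = 5.7e-64), in replicate 1 alone. With peaks counted in place of reads, MALAT1 was no longer called (log2 ratio -0.61, exact binomial test, adjusted p = 0.58). The test covers counting error only, since the reads of a peak are not independent.

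PVT1 had 19 distal against 321 proximal reads, with log2 ratio -4.04 (exact binomial test, adjusted p = 5.3e-70), but its replicates differed in direction, with 5 against 263, 8 against 3 and 6 against 55 reads. Where a replicate was left out, the span and both end windows were drawn anew from the remaining peaks. Without replicate 2 PVT1 was then called proximal, with log2 ratio -3.75. OIP5-AS1 had 26 distal against 9 proximal reads, with log2 ratio 1.48 (exact binomial test, adjusted p = 0.016). The call rested on replicate 2, with 16 against 0 reads, since replicate 1 had 10 against 9 and replicate 3 had none at either end. The other 16 reads of replicate 2 lay between 10% and 20% of the span. Without replicate 2 the log2 ratio was 0.14 (adjusted p = 1 by the exact binomial test), and with the outer 20% it was -1.12. Without replicate 1 it was -0.84, but on a shorter span, so this value does not follow from the counts above. TUG1 had 15 distal against 7 proximal reads, with log2 ratio 1.05 (exact binomial test, adjusted p = 0.22), with 0 against 3, 12 against 0 and 3 against 4 reads in the replicates. Without replicate 2 its log2 ratio was -1.10, and without replicate 3 it was 2.32 with a distal call. The span without replicate 3 ended earlier, so its end windows were not those of the counts above. With all replicates and the outer 20% of the span, the TUG1 log2 ratio was 3.06 and also called distal (exact binomial test, adjusted p = 3.1e-11).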

How the data were processed

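Peaks from CSTF2tau sCLIP of 3 replicates were used. Per the submitters' processing notes the build was hg19, and FastQC, SAMtools, STAR and bedtools are named. The peak caller and annotation are not given in the sources used here. Each deposited list gives per peak an interval, a p-value below 0.05 and a name made of the versioned gene ID, a serial number and a further integer, never under 3. This integer was read as reads, because its Spearman correlation with the deposited p-value across peaks was -0.988, -0.973 and -0.964; no source states it. All read values rest on that reading.

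Shares were divided by all listed reads of a replicate, with exact Clopper-Pearson 95% intervals, which cover counting error only. Overlapping same-strand peaks were merged; touching peaks were not. Spans ran from the first to the last listed peak and are not annotated transcripts. Alternatives that dropped peaks or replicates drew the spans and end windows anew from the peaks kept. Gene IDs needed 5 loci and 10 reads at both ends together for the end test; ratios carry 0.5 added reads. The end test was also run on simulated data with independent reads, which cannot show how it behaves for reads grouped in peaks. The RNAs, lists and tests were chosen with earlier results of these data known.

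The named items were the 7 RNAs, their 3 loci of highest mean share and every locus in all 3 replicates. RefSeq (GRCh38.p14) served for symbols and overlapping genes. It matched 0 listed gene IDs, so the lists of further long non-coding RNAs, paraspeckle proteins, NORAD partners and cell type markers, and the gene ID nearest in share, could not be named and were not analysed here. An hg19 sequence was not used here. Alternatives covered replicates left out, stricter p, at least 5 reads, peaks under several IDs, peaks counted, overlap and end windows. Python 3.11.15, pandas 2.3.3 and SciPy 1.17.1 were used.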

Additional observations from a re-analysis of the deposited data

How the results depend on the processing

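Of 115 alternative values, 88 stayed within 1 SD of the replicates, within the interval for RNAs listed once, or on the same side of the call. This count does not measure stability, because part of it was fixed in advance. Leaving out 1 of 3 replicates cannot move a mean share by 1 SD. The values of MALAT1 and MIAT come from replicate 1 alone, so leaving out another replicate cannot change their shares. The percentage of shared clusters was judged against a wide SD of 13.7. Leaving out a replicate gave mean shares of 0.159 to 0.232% for NEAT1, 0.0646 to 0.102% for PVT1, 0.0154 to 0.0166% for TUG1, 0.0204 to 0.0290% for OIP5-AS1 and 0.00327 to 0.00441% for NORAD. It gave 16.1 to 19.5% of clusters shared for the 7 RNAs, against 28.2% with all replicates; over all gene IDs these were 7.03 to 13.2% against 17.7%, with fewer lists to overlap. End ratios (log2) then ran from -7.61 to -3.82 for NEAT1, -4.30 to -2.18 for PVT1, -1.10 to 2.32 for TUG1 and -0.84 to 1.48 for OIP5-AS1. These ranges mix the loss of a replicate with changes of span and end windows. The MALAT1 ratio stayed at -2.11 and could not be fitted without replicate 1. No paired analysis was possible because there is 1 group.

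MALAT1 held 0.805% under the stricter p limit (the median of each list), 0.747% with at least 5 reads, 0.635% without peaks under several gene IDs, 0.194% with peaks counted and 0.308% with the highest peak of each run. NEAT1 held 0.120% with peaks counted. MIAT held 0.000853% with at least 5 reads, 0.000573% without peaks under several IDs and 0.00380% with peaks counted. TUG1 held 0.0202% under the stricter p limit, 0.0189% with at least 5 reads and 0.0111% with peaks counted. With the reads of its own strand as the total, scaled as if both strands held equal reads, its share was 0.0178%. For OIP5-AS1, the end ratio was 1.04 under the stricter p limit and with at least 5 reads, -1.12 with the outer 20% and -0.34 with the outermost locus. For TUG1 it was -1.74 with at least 5 reads, 3.06 with the outer 20%, then called distal, and -1.10 with the outermost locus. NEAT1 had -4.25 with the outermost locus and was not called, and MALAT1 had -0.61 with peaks counted. The stricter p limit and the limit of at least 5 reads also changed spans and end windows. The causes were not tested. The strand, highest-peak and touching-peak settings were chosen after seeing the data.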
